A study of Mus musculus with 4 samples.

Results

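The Wnt response genes described here are a list of 10 genes: Lef1, Tcf7, Tcf7l1, Tcf7l2, Sp5, Axin2, Nkd1, Rnf43, Znrf3 and Notum. They were read through every probe set that the platform annotation assigns to them alone, on all 4 arrays. A probe set is a group of short probes that together report 1 transcript. Of the 10 genes, 9 had a probe set, 19 probe sets in all, among 18193 genes and 45101 probe sets on the array, and Tcf7 was not analysed here. The arrays carried total RNA of 4 mouse cell populations, 1 array for each. These were embryonic fibroblasts, called MEF here, neural stem cells of primary origin, called NSC, neural stem cells induced with 13 factors (iNSC_13F), and neural stem cells induced with 14 factors (iNSC_14F). Induction here means that added factors push a cell from its own lineage towards a neural stem cell. The series title names adult liver cells and B lymphocytes as the starting cells. Which of them gave each induced sample, which factors were used, and the strain and age of the animals, the labels do not say. Cultures of NSC and of both induced populations received N2 medium containing epidermal growth factor, basic fibroblast growth factor and laminin, per the labels. The fibroblast culture is not described there. The source label calls all 4 samples embryonic stem cells, unlike the cell type label, which was used here.

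Values are signals, the linear intensities of the deposited table. Signals up to 103.91 were treated as not told apart from background. This floor was the highest of 4 values, 1 per array, each the 95th percentile of 86 sensory receptor probe sets (odorant, taste and vomeronasal). The values were 103.9 on MEF, 37.1 on NSC, 99.4 on iNSC_13F and 70.9 on iNSC_14F. A signal below the floor on NSC can thus exceed that array's own value, as that of Lef1 did (60.5). Where the dimmer array lay under the floor, the fold is a lower bound, written "at least". No difference has a replicate check, so no error or p-value is given. As a scale for what follows, 95% of genes above the floor on both induced arrays differed between them by less than 2.32-fold, which holds real differences as well as noise. Hybridization controls, which are spiked-in foreign transcripts, had their lowest signals on NSC. They were 1.83-fold higher on MEF, 2.11-fold higher on iNSC_13F and 1.82-fold higher on iNSC_14F. Of 7 neural stem cell and radial glia markers, 2 passed the floor on MEF and all 7 on each of NSC, iNSC_13F and iNSC_14F. Of 7 fibroblast markers the counts were 7 on MEF, 1 on NSC, 4 on iNSC_13F and 3 on iNSC_14F. None of the hepatocyte, B lymphocyte or pluripotent cell markers was above it on any array.

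Canonical Wnt signalling works by keeping beta-catenin from being destroyed, so that it enters the nucleus and acts with DNA-binding factors of the TCF and LEF family. Many of the genes it switches on encode brakes on the pathway itself, and their transcripts are widely used as readouts of its activity. In the developing nervous system the pathway is known for its roles in the growth of progenitors and in regional patterning. The 10 genes hold the TCF and LEF factors, the target transcription factor Sp5, the intracellular brakes Axin2 and Nkd1, the receptor ubiquitin ligases Rnf43 and Znrf3, and the secreted inhibitor Notum.

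The brakes Axin2, Nkd1 and Znrf3 had higher signals on NSC and on both induced arrays than on MEF. The brake Notum, with signals near the floor on all 4 arrays, did not share that pattern, and neither did the TCF and LEF factors. Lef1 was high on MEF and iNSC_13F and low on NSC, while Tcf7l1 and Tcf7l2 stayed within 2-fold of MEF on every array, except that scaling to hybridization controls put Tcf7l2 at a log2 difference of 1.04 on NSC. Of the 9 genes measured, 7 passed the floor on at least 1 array and 3 (Tcf7l1, Tcf7l2 and Znrf3) on all 4. Sp5 and Rnf43 were below it on all 4. Of the 19 probe sets, 13 were above the floor on at least 1 array and 5 on all 4. Unless another probe set is named, a gene's values are those of its probe set with the highest mean log2 signal, called the brightest. In bulk RNA, fewer cells of a type and less RNA per cell cannot be told apart.

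**Figure D1:**
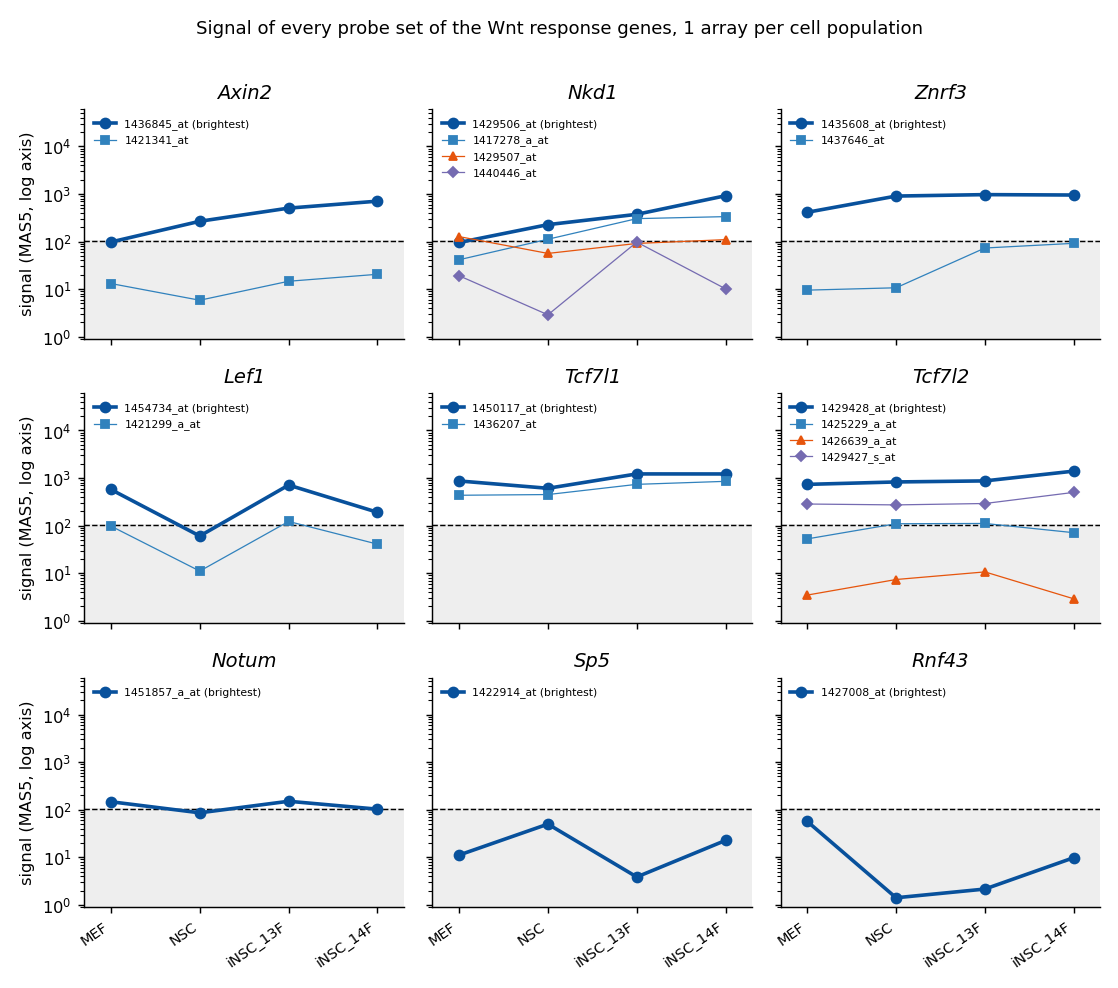
Signal of each of the 19 probe sets (log axis) on the MEF, NSC, iNSC_13F and iNSC_14F arrays, 1 panel per gene. Points are single arrays, the thick line joins the brightest probe set, and the dashed line with grey shading marks the floor of 103.91. The brightest probe sets of Axin2 and Nkd1 lie below the floor on MEF and above it on the other arrays, and Lef1 is below it on NSC.

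Axin2, a scaffold of the complex that destroys beta-catenin, had signals of 97.8 on MEF, 267 on NSC, 504 on iNSC_13F and 706 on iNSC_14F (probe set 1436845_at). It lay just under the floor on the fibroblast array and above it on the other arrays, highest on iNSC_14F. It was at least 2.57-fold higher on NSC than on MEF, at least 4.85-fold higher on iNSC_13F and at least 6.79-fold higher on iNSC_14F. The other Axin2 probe set, 1421341_at, read from 5.84 to 20.5 and was below the floor on all 4 arrays, so it neither bears the difference out nor goes against it.

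Nkd1, an inhibitor that binds Dishevelled, had signals of 95.5 on MEF, 227 on NSC, 373 on iNSC_13F and 918 on iNSC_14F (1429506_at). The order of the arrays was the same as for Axin2. Nkd1 was at least 2.18-fold higher on NSC than on MEF, at least 3.59-fold higher on iNSC_13F and at least 8.84-fold higher on iNSC_14F. A second probe set, 1417278_a_at, had signals of 41.4, 112, 303 and 334 in the same order of arrays. It too was lowest on MEF and highest on the induced arrays, at least 2.92-fold higher on iNSC_13F and at least 3.21-fold higher on iNSC_14F. On NSC, just over the floor, it was at least 1.08-fold higher than on MEF, so 2-fold there rests on 1429506_at alone. Probe set 1429507_at went the other way, with 127 on MEF, 56.3 on NSC, 91.2 on iNSC_13F and 110 on iNSC_14F, all near or below the floor. Probe set 1440446_at was below the floor on all 4 arrays.

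Znrf3, a membrane ubiquitin ligase that removes Frizzled receptors from the cell surface, had signals of 412 on MEF, 903 on NSC, 969 on iNSC_13F and 950 on iNSC_14F (1435608_at). The NSC and induced arrays lay close together and MEF apart. This was 2.19-fold, 2.35-fold and 2.31-fold above MEF, with all 4 arrays above the floor. The other probe set, 1437646_at, was below the floor on all 4 arrays, at 9.51, 10.7, 73.1 and 91.7. Rnf43, the related ligase, read 56.8 on MEF and between 1.41 and 9.82 on the other arrays, so no fold is given. Notum, a secreted enzyme that inactivates Wnt proteins by removing their lipid, had signals of 147 on MEF, 86.2 on NSC, 151 on iNSC_13F and 103 on iNSC_14F. All 4 of its values lie near the floor, and its largest difference between arrays was at least 1.45-fold, lower on iNSC_14F than on iNSC_13F and lower on NSC than on iNSC_13F.

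Lef1, a TCF and LEF factor that is itself a frequent Wnt target, had signals of 575 on MEF, 60.5 on NSC, 713 on iNSC_13F and 191 on iNSC_14F (1454734_at). It was therefore high on MEF and iNSC_13F, lower on iNSC_14F and below the floor on NSC. The NSC level was at least 5.54-fold below MEF. The iNSC_13F level was 1.24-fold above MEF and the iNSC_14F level 3.02-fold below it. The second probe set, 1421299_a_at, was dimmer, at 97.9, 11.1, 122 and 40.8. It was above the floor on iNSC_13F alone, the array that was also highest by the brightest probe set. The 7 fibroblast markers had summed signals of 179003 on MEF, 374.7 on NSC, 2776 on iNSC_13F and 3901 on iNSC_14F. Col1a1, Postn and Pdgfrb were below the floor outside MEF. Fn1 made up most of the sums there, with 255 on NSC, 1954 on iNSC_13F and 3534 on iNSC_14F. Thy1 had 472 on iNSC_13F and 171 on iNSC_14F, Col3a1 had 157 and 32.6, and Col1a2 had 116 and 115. The 4 endothelial markers summed to 237.0, 178.9, 205.2 and 147.5, of which Kdr alone passed the floor, on MEF and iNSC_13F (207 and 142), while Pecam1, Cdh5 and Tek were below it on all 4 arrays. The part of other cells in the Lef1 signal was not tested.

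Tcf7l1, a family member mostly described as a repressor of Wnt targets, had signals of 869 on MEF, 610 on NSC, 1222 on iNSC_13F and 1219 on iNSC_14F (1450117_at). The second probe set, 1436207_at, read 435, 450, 738 and 853. Both probe sets were higher on the induced arrays than on the references, by 1.41-fold and 1.40-fold over MEF for the brighter one and by 1.70-fold and 1.96-fold for the other. They disagreed on NSC against MEF, which was 1.43-fold lower by the first and 1.03-fold higher by the second. Tcf7l2, another family member, had signals of 736 on MEF, 828 on NSC, 871 on iNSC_13F and 1399 on iNSC_14F (1429428_at). MEF, NSC and iNSC_13F differed from each other by at most 1.18-fold, and iNSC_14F was 1.90-fold above MEF. Probe set 1429427_s_at, with 285, 273, 292 and 500, also placed iNSC_14F highest, 1.76-fold above MEF. The remaining probe sets of Tcf7l2 lay near or below the floor: 1425229_a_at reached at most 111 and 1426639_a_at at most 10.7. Sp5, a transcription factor and direct Wnt target, read 11.1, 49.9, 3.86 and 22.7 and was not measured on any array.

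The probe sets of a gene could be compared in few cases. In 36 comparisons of a measured gene with several probe sets between a pair of arrays, over 6 genes, a second probe set was above the floor in 21. In 13 of these all such probe sets pointed the same way, and in 8 at least 1 pointed the opposite way.

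Counted together against MEF, 3 of the 7 members above the floor reached 2-fold higher on NSC (19.6% of all measured genes were) and 1 was at least 2-fold lower (17.2% of all). On iNSC_13F 3 of 7 were higher (15.7% of all) and 0 lower (20.5% of all). On iNSC_14F 3 of 7 were higher (18.1% of all) and 1 lower (18.6% of all). The members higher by 2-fold were Axin2, Nkd1 and Znrf3 in each comparison, and the member lower was Lef1. The median log2 difference of the members was 0.17 on NSC, 0.49 on iNSC_13F and 0.93 on iNSC_14F, beside -0.01, 0.09 and 0.11 over all measured genes. These 3 comparisons share the MEF array. When each gene took its median probe set in place of the brightest, the counts at least 2-fold higher were 0 of 4 measured, 1 of 6 and 1 of 7. The median signals of Axin2, Nkd1 and Znrf3 on MEF were then below the floor, so their differences were lower bounds or not measured. On NSC against MEF Axin2, Nkd1 and Znrf3 were all not measured. The member counted higher on iNSC_13F and on iNSC_14F was Znrf3, with log2 differences of at least 1.36 and at least 1.51.

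**Figure D2:**
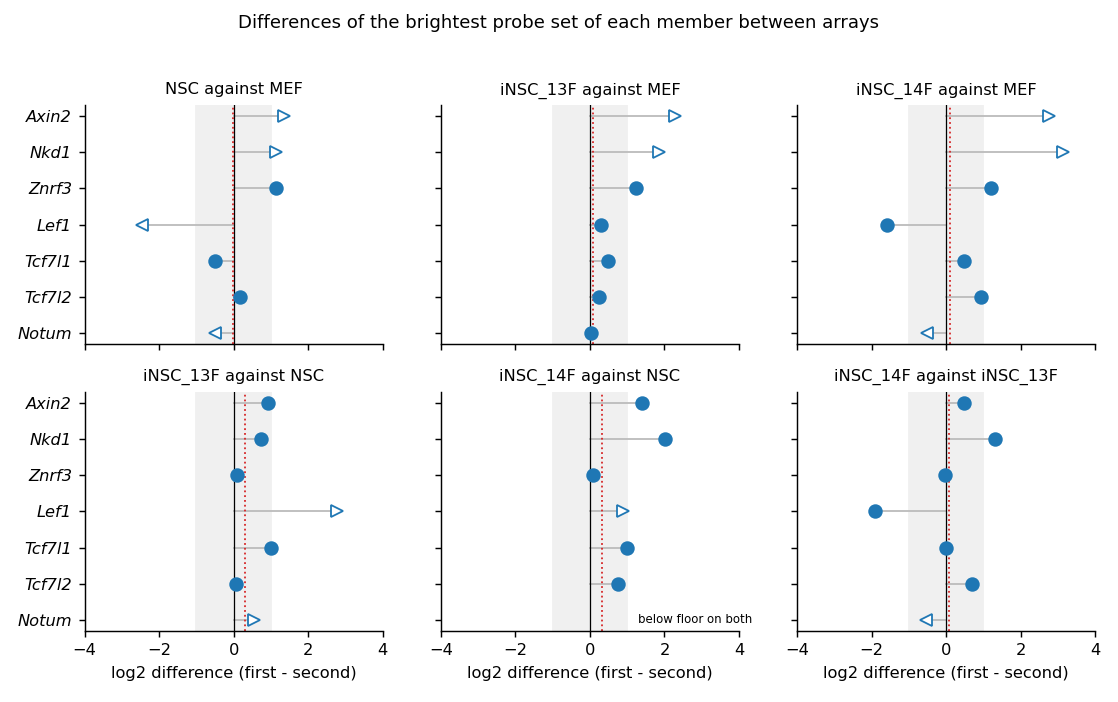
The log2 difference of the brightest probe set of 7 members for each of the 6 pairs of arrays, first array minus second. Filled points were above the floor on both arrays, open triangles are lower bounds, grey shading marks differences under 2-fold, and the dotted line is the median of all measured genes. Axin2, Nkd1 and Znrf3 lie right of the shading in the 3 comparisons with MEF, and Lef1 lies left of it on NSC and iNSC_14F.

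The induced arrays were also set against NSC, to see whether they matched the reference neural stem cells. Znrf3 was within 1.07-fold of NSC on iNSC_13F and 1.05-fold on iNSC_14F by its brightest probe set. With its median probe set signal, which takes in a probe set below the floor, the log2 differences were at least 1.36 and at least 1.51. Axin2 was 1.89-fold higher on iNSC_13F and 2.65-fold higher on iNSC_14F, and Nkd1 1.65-fold and 4.05-fold. The second Nkd1 probe set gave 2.71-fold and 2.99-fold. Lef1 was at least 6.86-fold higher on iNSC_13F and at least 1.84-fold higher on iNSC_14F. Tcf7l1 was 2.00-fold higher on each, and Tcf7l2 was 1.05-fold and 1.69-fold higher. In all, 2 of 7 members (Lef1 and Tcf7l1) reached 2-fold higher on iNSC_13F (14.9% of all measured genes were) and 0 lower (20.5% of all). On iNSC_14F 3 of 6 (Nkd1, Axin2 and Tcf7l1) were higher (16.9% of all) and 0 lower (19.1% of all). Both comparisons share the NSC array. When each gene took its median probe set, 1 of 5 members reached 2-fold higher on iNSC_14F. Tcf7l1 then had a log2 difference of 0.96. Axin2 had at least 0.21 and Nkd1 at least 0.88, because their median signals on NSC were below the floor. These 2 bounds do not show whether the differences were under 2-fold. On iNSC_13F the count was 2 of 6, Lef1 and Znrf3. Tcf7l1 sits on the 2-fold line, with log2 differences of 1.003 and 1.0004.

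These differences from NSC also depend on how the arrays are scaled. With arrays scaled to their hybridization controls, the all-gene median log2 difference went from 0.30 to -0.65 on iNSC_13F and from 0.33 to -0.44 on iNSC_14F. On iNSC_13F the members counted were then 1 higher and 1 lower, where 1.31% of all genes were higher and 38.0% lower. On iNSC_14F they were 1 and 0, with 2.60% and 31.7% of all genes. On iNSC_13F the log2 differences of Axin2 (0.92), Nkd1 (0.72), Tcf7l1 (1.00), Tcf7l2 (0.07) and Znrf3 (0.10) turned to -0.16, -0.36, -0.072, -1.002 and -0.98, while that of Lef1 was 2.48. On iNSC_14F Axin2 kept its sign at 0.54, Nkd1 at 1.16, Tcf7l1 at 0.14 and Lef1 at 0.79, while Tcf7l2 turned to -0.11 and Znrf3 to -0.79. Relative to the median of all genes, Axin2 lay 0.62 above it on iNSC_13F (0.49 with the controls) and 1.07 above it on iNSC_14F (0.98). Nkd1 lay 0.42 (0.29) and 1.69 (1.60) above it, and Tcf7l1 0.70 (0.58) and 0.67 (0.58). Lef1 lay at least 2.48 (3.13) and at least 0.55 (1.23) above it. Its NSC signal was below the floor as reported and above the floor with the controls. Znrf3 lay below the median of all genes on both, at -0.20 (-0.33) and -0.26 (-0.35). Tcf7l2 lay below it on iNSC_13F, at -0.23 (-0.35), and above it on iNSC_14F, at 0.43 (0.33). Against MEF the same scaling moved the NSC values of Axin2 up to at least 2.23, Nkd1 to at least 1.99 and Znrf3 to 2.00. Of all genes, 42.3% were then at least 2-fold higher and 8.91% lower. The scaling took Tcf7l2 past 2-fold (from 0.17 to 1.04) so that 4 members were higher. It turned Tcf7l1 from -0.51 to 0.36, and Notum from a bound of -0.50 to 0.098.

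The induced arrays were compared with each other to see where the cells made with 14 factors differed from those made with 13. Lef1 was 3.74-fold lower on iNSC_14F, and its dimmer probe set went the same way, at least 1.18-fold lower. Nkd1 was 2.46-fold higher by its brightest probe set but 1.10-fold higher by the second, with signals of 303 and 334, and its median over probe sets gave a log2 difference of 0.16. Tcf7l2 was 1.61-fold higher, and 1.71-fold by probe set 1429427_s_at. Axin2 was 1.40-fold higher, Znrf3 1.02-fold lower and Tcf7l1 1.00-fold lower, all within the 2.32-fold that held for 95% of genes. Of 7 members 1, Nkd1, reached 2-fold higher (5.99% of all measured genes were) and 1, Lef1, lower (2.95% of all). Of 4 oligodendrocyte markers 1 was above the floor on MEF, NSC and iNSC_14F and 2 on iNSC_13F. Their summed signals were 1154 on MEF, 5209 on NSC, 5289 on iNSC_13F and 8370 on iNSC_14F, nearly all from Cnp (8277 on iNSC_14F), while Mog and Mag were below the floor on all 4 arrays and Mbp passed it on iNSC_13F alone (131). Their part in the Tcf7l2 and Nkd1 levels was not tested.

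**Figure D3:**
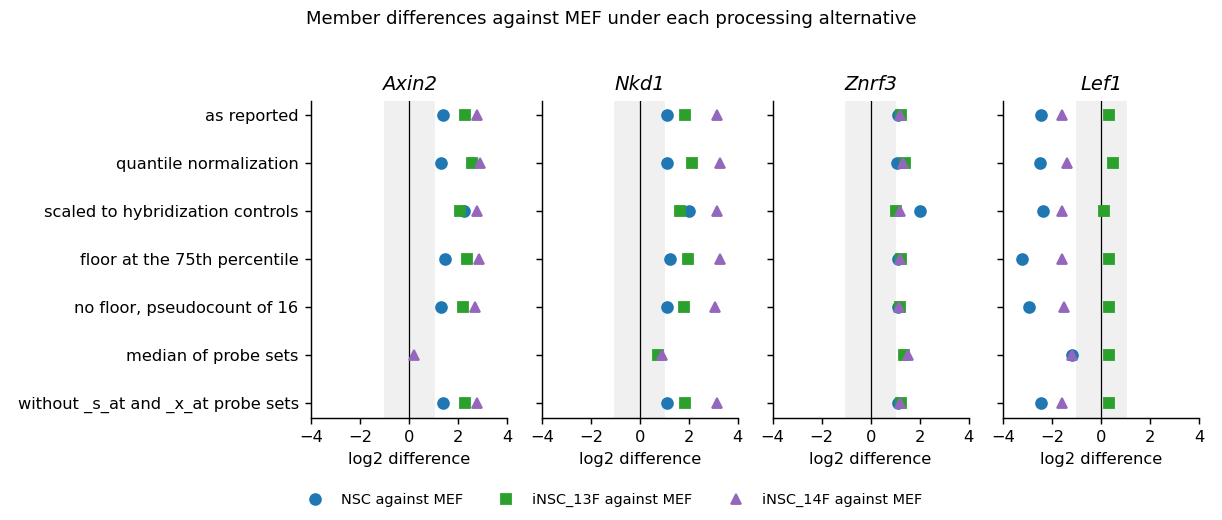
The log2 differences of Axin2, Nkd1, Znrf3 and Lef1 against MEF as reported and under 6 processing alternatives, with circles for NSC, squares for iNSC_13F and triangles for iNSC_14F. Grey shading marks differences under 2-fold, and a missing symbol means that both arrays were at or below the floor. Axin2 and Nkd1 leave the 2-fold range under all alternatives except the median of their probe sets. There their MEF signals are below the floor, and the values are lower bounds. These are 0.21 for Axin2 on iNSC_14F, and for Nkd1 0.72 on iNSC_13F and 0.88 on iNSC_14F. The differences of Axin2 and Nkd1 as reported are lower bounds too, and bounds carry no mark of their own here.

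The sequences upstream of the members were read to see whether they hold the short motif that TCF and LEF factors bind. RefSeq promoter windows (GRCm38.p6) were found for 8 of the 10 genes, 14 windows in all, some at alternative starts inside a gene. Znrf3 and Notum had no window and were not searched. The 250 bases before each start were searched on both strands for CTTTGAA, found in 4.46% of the windows of all genes, for CTTTGAT, found in 3.21%, for CTTTGTA, found in 3.20%, and for CTTTGTT, found in 5.03%. These motifs cannot overlap one another on 1 strand. A match was present in 3 of the 14 member windows, 1 each for Sp5, Lef1 and Tcf7l2, and any of the motifs in 14.8% of 32851 windows over all genes. Axin2 and Nkd1, which were higher on NSC and both induced arrays than on MEF, and Sp5, the window with 2 matches, are shown whole, 5′ to 3′ on the gene's strand, which is the plus strand for each, with matches in capitals.
Axin2 (chr11:108920099-108920348): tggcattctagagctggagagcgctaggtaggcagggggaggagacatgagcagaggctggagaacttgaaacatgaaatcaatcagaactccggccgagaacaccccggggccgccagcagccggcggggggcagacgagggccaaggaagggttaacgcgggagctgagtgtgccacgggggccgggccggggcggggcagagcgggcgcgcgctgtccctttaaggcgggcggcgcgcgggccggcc
Nkd1 (chr8:88527383-88527632): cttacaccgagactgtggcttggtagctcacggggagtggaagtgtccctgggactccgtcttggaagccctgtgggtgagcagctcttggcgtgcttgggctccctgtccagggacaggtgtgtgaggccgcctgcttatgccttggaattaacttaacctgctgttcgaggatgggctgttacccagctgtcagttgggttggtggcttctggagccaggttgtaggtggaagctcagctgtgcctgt
Sp5 (chr2:70474673-70474922): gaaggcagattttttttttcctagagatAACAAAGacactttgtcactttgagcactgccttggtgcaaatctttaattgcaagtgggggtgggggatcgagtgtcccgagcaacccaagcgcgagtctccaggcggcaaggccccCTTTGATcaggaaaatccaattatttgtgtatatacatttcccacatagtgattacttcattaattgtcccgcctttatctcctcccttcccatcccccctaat
The Sp5 matches began 222 and 104 bases before the start. The matches of Lef1 and Tcf7l2 lay at alternative starts inside each gene and are shown with up to 20 bases on each side.
Lef1 (chr3:131156127-131156173): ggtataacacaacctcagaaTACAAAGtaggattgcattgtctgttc
Tcf7l2 (chr19:55895287-55895320): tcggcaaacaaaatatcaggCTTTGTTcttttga
The windows of Axin2 and Nkd1 held none of these motifs. Sp5, with 2 matches, was below the floor on every array.

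Around the members, 101 other genes of the pathway were read by role, of which 99 had a probe set. Their counts stand beside the shares of all measured genes given above, 19.6% higher and 17.2% lower than MEF by 2-fold on NSC, 15.7% and 20.5% on iNSC_13F, and 18.1% and 18.6% on iNSC_14F. Over all lists the counts higher and lower were 13 and 25 of 72 measured on NSC, 17 and 23 of 74 on iNSC_13F, and 14 and 24 of 73 on iNSC_14F. The median log2 differences were -0.52, -0.15 and -0.24, beside -0.01, 0.09 and 0.11 over all measured genes. Each list is small, and its counts are a description from which nothing is read about the list as a group. Of 11 Wnt ligands measured, 2 were at least 2-fold higher and 3 lower on NSC, 3 and 4 on iNSC_13F, and 2 and 4 on iNSC_14F. Wnt7a and Wnt7b, ligands expressed in the developing brain, were higher. Wnt7b had signals of 58.8 on MEF, 295 on NSC, 386 on iNSC_13F and 616 on iNSC_14F. Wnt7a had 6.32, 668, 223 and 451, with 1 of its 3 probe sets opposite in the comparisons with MEF. Wnt9a was at least 8.16-fold lower on all 3, from 848 on MEF. Porcn, which adds the lipid that Wnt proteins need for secretion, had signals of 97.2, 141, 249 and 368.

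Of 14 measured receptors, 2 were at least 2-fold higher and 7 lower than MEF on NSC, 2 and 5 on iNSC_13F, and 1 and 6 on iNSC_14F. Fzd9 had signals of 5.60 on MEF, 1689 on NSC, 1421 on iNSC_13F and 6638 on iNSC_14F. Fzd3 was 13.5-fold higher on NSC but read 234 and 278 on the induced arrays, against 233 on MEF. Its 6 probe sets were split on iNSC_13F against NSC, where 2, the brightest among them, were lower and 2 higher. On iNSC_14F against NSC 4 were lower and 0 higher. Lgr5, a receptor of R-spondins and a known Wnt target, had 52.3, 107, 143 and 555, and was 3.89-fold higher on iNSC_14F than on iNSC_13F. Of the R-spondins and their receptors, 0 of 4 measured were at least 2-fold higher and 3 lower on NSC, 0 and 2 of 5 on iNSC_13F, and 1 and 3 of 5 on iNSC_14F. Of 8 secreted inhibitors and Kremen genes measured, 1 was at least 2-fold higher and 6 lower on NSC, 0 and 4 on iNSC_13F, and 1 and 4 on iNSC_14F. Dkk3 was at least 16.6-fold lower and Dkk2 at least 6.56-fold lower on all 3. Apcdd1, an inhibitor that is also a Wnt target, had signals of 963, 209, 614 and 1585.

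Of 10 measured genes of beta-catenin and its destruction complex, 2 were at least 2-fold higher and 0 lower than MEF on NSC. The counts were 1 and 1 on iNSC_13F, and 1 and 1 on iNSC_14F. Apc, a scaffold of that complex, had signals of 1041 on MEF, 3423 on NSC, 227 on iNSC_13F and 264 on iNSC_14F. Among nuclear partners of the TCF factors, 2 of 10 were at least 2-fold higher and 0 lower on NSC, 4 and 1 of 11 on iNSC_13F, and 4 and 0 of 10 on iNSC_14F. The corepressor genes Tle4 (251, 5328, 2579 and 2931) and Tle2 (126, 315, 656 and 675) were lowest on MEF. Of 13 other reported targets, 4 were higher and 6 lower on NSC, 6 and 6 on iNSC_13F, and 3 and 6 on iNSC_14F. Ccnd1, a cyclin of the early cell cycle, was 6.11-fold, 9.09-fold and 6.21-fold higher, and Ccn4, a matrix protein, was at least 48.1-fold lower on all 3, where the fibroblast markers above were also lower.

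**Figure D4:**
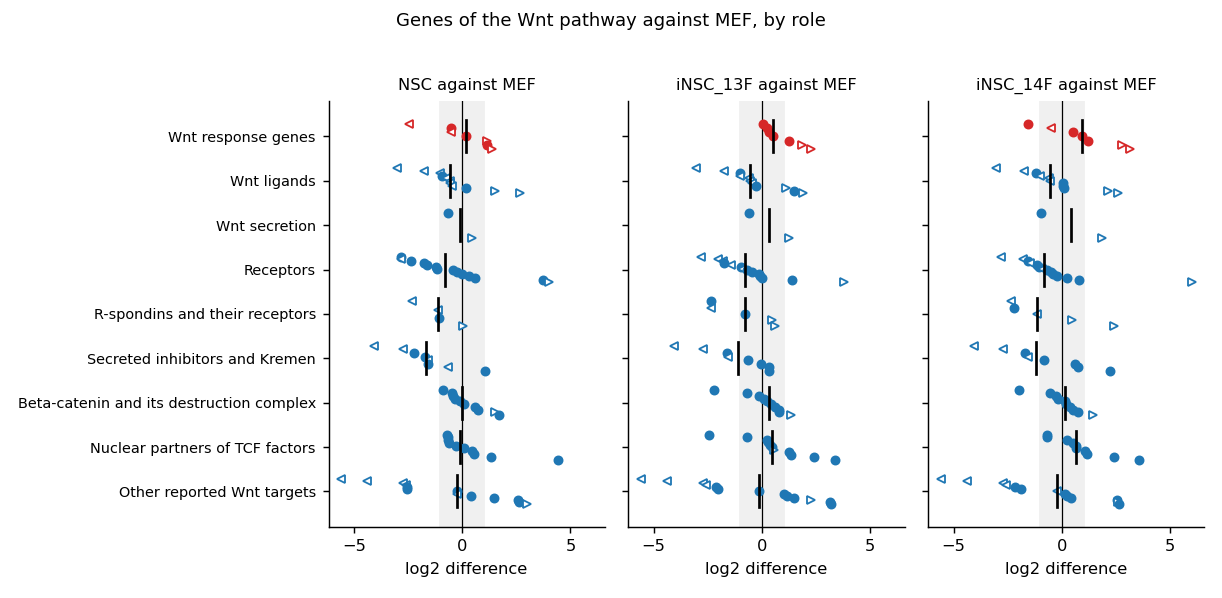
Log2 differences from MEF of each measured gene, by role, with the Wnt response genes in red and the other pathway genes in blue. Filled points were above the floor on both arrays, open triangles are lower bounds, black bars are list medians and grey shading marks differences under 2-fold. The medians of ligands, receptors, R-spondins with their receptors, secreted inhibitors and other targets lie left of 0 in all 3 panels.

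Genes whose pattern over the 4 arrays was most like that of a member were found by the distance between log2 profiles, each centred on its mean, among 10618 genes above the floor on at least 2 arrays. For Axin2 the nearest were Agrn (distance 0.12; signals of 713, 1862, 3828 and 5271) and Ccdc88c (0.19). For Nkd1 they were Plcd4 (0.098) and Gm2a (0.12; signals of 592, 1396, 2258 and 5893), and for Znrf3 Snrnp35 (0.077) and Nhsl1 (0.079). For Lef1 the nearest were less close, Trim47 (0.45; signals of 665, 30.6, 555 and 215) and Smtn (0.47). Tcf7l1 was matched by Usp39 (0.016) and Cfl1 (0.026). With 4 arrays and so many genes, close matches arise for most patterns, and these are a description only.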

How the data were processed

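The deposited values are array intensities, 1 linear signal per probe set, read on the Affymetrix Mouse Genome 430 2.0 platform, per the labels. MAS5, which summarises each array alone, is named in the submitters' processing notes, without version or settings. With 2% trimmed from each end, the mean of every array was 500, so no further scaling was applied. Samples were grouped by cell type label, 1 array per group. All probe sets with 1 annotated gene (34945) were named, 34741 of them through gene ID in a GRCm38.p6 table. Signals were set to the floor before taking log2, and a gene counted as measured in a pair when above it on at least 1 array. With no residual degrees of freedom no test was run, and genes were counted by size (2-fold). The number of arrays limits the precision. Counting by that rule was tested on simulated data, with changes placed only in genes well above the floor. The simulation does not cover genes near or below the floor, such as Axin2 and Nkd1 on MEF. The members, lists and alternatives were chosen with earlier results of these data known. All members were named. Of each pathway list up to 4 genes with the largest difference from MEF could be named (all where 5 or fewer were measured), and for each member spanning 2-fold and above the floor on 2 arrays the 2 nearest genes. Python 3.11.15, numpy 2.4.6 and pandas 2.3.3 were used. Alternatives were quantile normalization, scaling to 9 hybridization control probe sets, a lower floor (75th percentile), log2(signal + 16) without a floor, a gene's median probe set, and dropping _s_at and _x_at probe sets.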

Additional observations from a re-analysis of the deposited data

Results flagged for a closer look

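For Lef1 the induced arrays lay on opposite sides of MEF, with a log2 difference of 0.31 on iNSC_13F and -1.59 on iNSC_14F, which set it apart from the other members above the floor on those arrays. Notum also lay on opposite sides, at 0.03 and at a bound of -0.50, with all its signals near the floor. Each rests on 1 array per group, and the difference between the induced samples was not tested.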

How the results depend on the processing

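Of 144 counts under alternatives, 124 stayed within 1.5 times the reported count. For members, the median of probe sets gave 0 higher on NSC (reported 3), 1 on iNSC_13F (3) and 1 on iNSC_14F (3) against MEF, 1 on iNSC_14F against NSC (3) and 0 on iNSC_14F against iNSC_13F (1). For members with a probe set below the floor, that alternative averages it in, and where the dimmer median lies below the floor the difference is a lower bound. Where both medians lie below it the member is not measured, as for Axin2, Nkd1 and Znrf3 on NSC against MEF. Both probe sets of Tcf7l1 were above the floor, and it moved from 1.0004 to 0.96 on iNSC_14F against NSC. On iNSC_13F against NSC (2 higher, 0 lower), quantile normalization gave 4 higher, no floor gave 1, and scaling to the hybridization controls gave 1 higher and 1 lower. On iNSC_14F against NSC that scaling gave 1 higher. It reversed Tcf7l1 on iNSC_13F against NSC (log2 1.00) to -0.072. For the other pathway genes, scaling to the controls gave 22 higher on NSC against MEF (13), 1 higher and 20 lower on iNSC_13F against NSC (12 and 9), 3 higher and 18 lower on iNSC_14F against NSC (15 and 7), and 1 lower on iNSC_14F against iNSC_13F (4). The median of probe sets gave 6 higher on iNSC_13F against NSC, 8 on iNSC_14F against MEF (14), 9 on iNSC_14F against NSC and 3 on iNSC_14F against iNSC_13F (7). Other causes were not tested. No paired analysis was possible because each group has 1 array. Members near the floor, such as Notum, are limited by signal over background.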
